A study of Mus musculus with 8 samples.

Results

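The 38 genes described here encode the extracellular matrix of the liver, the enzymes that remodel it, and markers of hepatic stellate cells, the pericytes of the sinusoid. They were chosen by symbol, from a list made with earlier results of these data known. All 38 are among the 15210 genes of the deposited table. For 35 of them the values were high enough to be tested, out of 12008 genes tested in all. Lox, Loxl1 and Timp1 were below the minimum for testing.

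The samples are livers of 8 F1-TKm30 females, which carry a mutant herpes simplex virus thymidine kinase cDNA (clone 30) driven by the mouse transthyretin enhancer and promoter, a liver promoter, on the immunodeficient NOG background. All 8 mice carry that transgene. The 4 control mice received 0% and the 4 treated mice 0.05% of 4,4'-methylenebis(2-chlorobenzenamine), called MOCA, an aromatic amine used as a curing agent, for 4 weeks. They were 17 or 21 weeks old, the labels do not assign these ages to single mice, and one label field names C57BL mice where the others name F1-TKm30. Each mouse gave 1 library, with 15024945 to 17101844 reads counted over the 15210 genes of the deposited table. Values are normalised counts, that is CPM (counts divided by library total) with a further scaling between libraries by the authors, with 1 read worth 0.0581 to 0.0648. Group values are mean ± SD over 4 mice. Each difference is a log2 fold change of MOCA over control after adding 1 to every value, so differences of low genes come out too small. Hepatocyte markers had the highest summed level of all cell type lists, 125800 to 145300 in control and 107500 to 121000 in MOCA livers, and a quiescent stellate cell list was detected with 15 of 16 listed markers testable.

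Fibrillar collagens form the tensile fibres of scar and portal tracts, while collagen IV, laminins and perlecan form basement membranes. In a healthy liver stellate cells store retinyl esters, made by lecithin retinol acyltransferase (Lrat). On injury they can become myofibroblasts that express smooth muscle actin (Acta2), fibrillar collagens, lysyl oxidases and Timp1, a change driven by TGF-beta and PDGF. Several matrix proteins in liver RNA are not stellate products, and plasma fibronectin (Fn1) is made by hepatocytes.

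No gene of the set passed the test between MOCA and control livers. With limma and Benjamini-Hochberg adjustment over the 12008 genes tested, 0 of 35 were called in either direction, against 0.666% of all genes. The same count by edgeR was 0 of 35, against 0.675% of all genes. DESeq2 called 2 of 35, against 3.61%, and these were Col18a1 (adjusted p = 0.0101) and Reln (adjusted p = 0.0249). Below, a call is one by limma unless another tool is named. At an unadjusted p under 0.05 there were 8 of 35 (22.9%), against 17.5% of all genes. Of these 4 were higher and 4 lower in MOCA livers, against 9.42% and 8.05% of all genes. Of the log2 fold changes 17 were positive and 18 negative, against 6140 and 5868 over all genes tested. The median of the 35 was -0.0065, against 0.0051 over all genes tested. The sign of the median turned under 8 other settings, so it carries no direction.

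**Figure D1:**
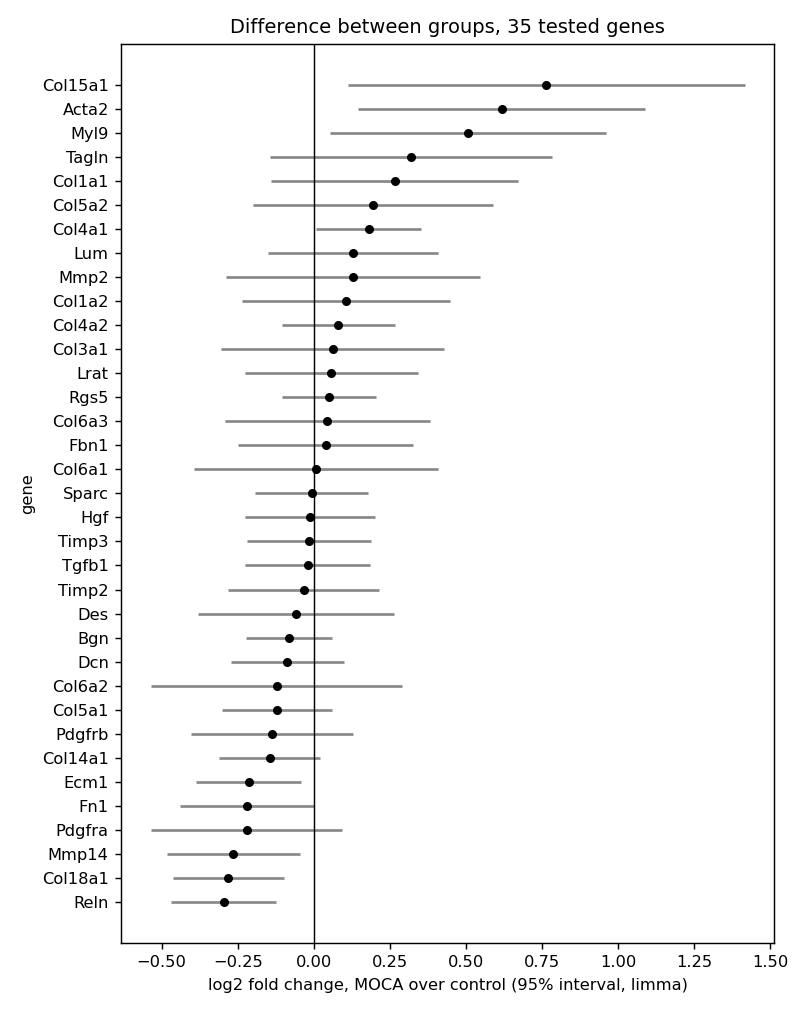
Log2 fold change of MOCA over control for the 35 tested genes (points) with 95% intervals from the limma fit over all genes (lines), 4 mice a group. The intervals of Reln, Col18a1, Mmp14 and Ecm1 lie below 0 and those of Col15a1, Acta2, Myl9 and Col4a1 above 0, while none of the 35 genes passed after adjustment.

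In 3 of the 35 genes (8.57%) the MOCA mice did not overlap the control mice, against 10.5% of all genes tested, and all 3 were lower in MOCA livers. Over all genes 4.96% were lower and 5.5% higher without overlap. The first is Reln, reelin, a large secreted glycoprotein that stellate cells produce in liver (chromosome 5, 21884454 to 22344705, mm10). Its normalised counts were 267, 223, 264 and 236 in control mice 1 to 4. In MOCA mice 1 to 4 they were 187, 208, 211 and 198. The highest MOCA mouse stood below the lowest control mouse, with a log2 fold change of -0.30 (SE 0.08, 95% interval -0.47 to -0.12, limma adjusted p = 0.104). In bulk liver RNA, fewer cells of a type and less RNA per cell cannot be told apart.

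Col18a1, the chain of collagen XVIII from which endostatin is cut, is a basement membrane collagen (chromosome 10, 77052178 to 77166530). Control mice had 1541, 1614, 1483 and 1601, and MOCA mice had 1419.7, 1197, 1265 and 1259. The groups were separated by the gap between control mouse 3 and MOCA mouse 1, and the log2 fold change was -0.28 (SE 0.08, 95% interval -0.46 to -0.10, adjusted p = 0.132). Ecm1, extracellular matrix protein 1 (chromosome 3, 95734147 to 95739876), had 203, 186, 185 and 184 in control and 153, 176, 177 and 147 in MOCA mice. Here 3 control mice lay close together under control mouse 1, and the log2 fold change was -0.21 (SE 0.08, 95% interval -0.39 to -0.04, adjusted p = 0.203). Without each mouse in turn, none of these 3 genes passed.

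The promoters of these 3 genes are shown because they are the genes of the set whose groups did not overlap. Each line gives the 250 bases before the RefSeq transcript start on the minus strand of GRCm38 (mm10), 5′ to 3′, at chr5:22344706-22344955 for Reln, chr10:77166531-77166780 for Col18a1 and chr3:95739570-95739819 for Ecm1. Capitals mark GC boxes (GGGCGG, or CCGCCC on the other strand) and TATA boxes (TATAA, or TTATA on the other strand), 2 motifs whose matches do not overlap here.
Reln: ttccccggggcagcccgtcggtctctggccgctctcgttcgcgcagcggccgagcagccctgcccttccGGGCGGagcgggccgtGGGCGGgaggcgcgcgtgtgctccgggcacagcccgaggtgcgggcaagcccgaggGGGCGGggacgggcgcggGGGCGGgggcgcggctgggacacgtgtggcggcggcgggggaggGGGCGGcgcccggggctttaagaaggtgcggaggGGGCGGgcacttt
Col18a1: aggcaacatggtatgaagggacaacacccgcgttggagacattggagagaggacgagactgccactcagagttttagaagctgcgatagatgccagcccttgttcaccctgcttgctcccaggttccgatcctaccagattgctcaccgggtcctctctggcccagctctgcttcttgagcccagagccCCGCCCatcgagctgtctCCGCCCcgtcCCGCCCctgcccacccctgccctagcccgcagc
Ecm1: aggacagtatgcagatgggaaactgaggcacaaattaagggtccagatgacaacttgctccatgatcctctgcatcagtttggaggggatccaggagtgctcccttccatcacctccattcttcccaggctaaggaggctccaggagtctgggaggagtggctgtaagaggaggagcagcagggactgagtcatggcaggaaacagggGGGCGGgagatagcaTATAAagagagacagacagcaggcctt
The Reln window held 6 GC boxes and no TATA box, with 80.0% G and C. The Col18a1 window held 3 GC boxes, all read on the other strand, and Ecm1 held 1 GC box and 1 TATA box, the latter beginning 27 bases before the start. Of all 32851 RefSeq windows of this length 32.7% held a GC box and 22.8% a TATA box. The promoter table used here holds 30 windows for 27 of the 38 genes. Counted per gene, 17 held a GC box and 4 a TATA box in at least 1 window, a unit unlike the shares of windows above. The RefSeq gene interval of Ecm1 reaches to 95739876, past the start used here and past the whole printed window. The Ecm1 window thus lies inside the annotated gene, and its TATA box position holds only for the start used here. Col18a1 has another RefSeq start, at 77113705, and the gene-level values do not separate transcripts from the 2 starts.

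Levels per kilobase, which allow a comparison between genes, spanned several orders of magnitude. Each value was divided by the length of the longest GENCODE coding transcript. Fn1 had the highest level, 484 ± 8.20 normalised counts per kilobase in control livers, followed by Col18a1 with 279 ± 10.7. Next came Ecm1 with 99.7 ± 4.67 and the small leucine-rich proteoglycan decorin, Dcn, with 92.4 ± 3.30. Biglycan (Bgn) had 53.4 ± 1.10 and Sparc, a collagen-binding matricellular protein, 30.3 ± 0.97. Each of these 6 genes stood, in every control mouse, above every control mouse of the next gene in the order, whereas Reln (21.2 ± 1.82) and Mmp14 (18.1 ± 2.13) overlapped. The fibrillar collagens stood far lower, from 5.76 ± 0.94 for Col3a1 to 0.30 ± 0.11 for Col5a2, and Acta2, the marker of myofibroblasts, had 1.10 ± 0.22. From Col1a2 down to Fbn1 each gene overlapped the next over control mice. At the bottom, Timp1 had 0.086 ± 0.088 and Lox 0.067 ± 0.014.

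**Figure D2:**
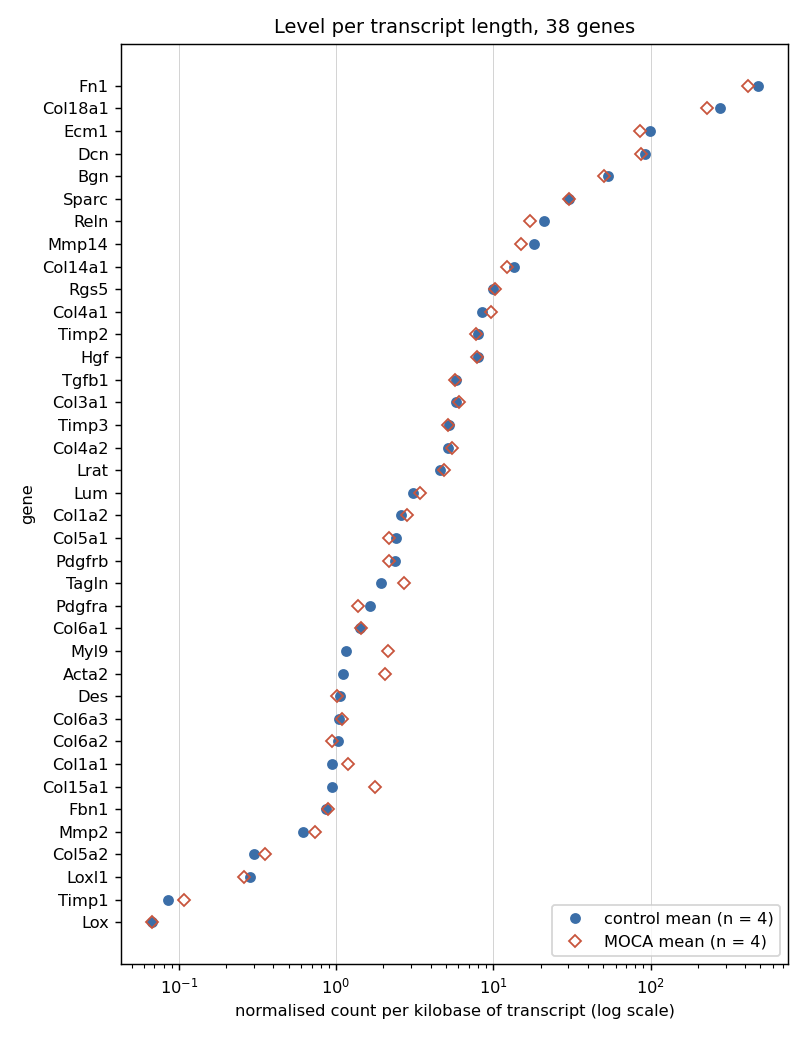
Mean normalised count per kilobase of transcript (log axis) of the 38 genes in control livers (blue circles, n = 4) and MOCA livers (red diamonds, n = 4), ordered by the control mean. Fn1 and Col18a1 lead with 484 and 279 in control livers, and Lox is last with 0.067.

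Among the 5 fibrillar collagens none was called and none had an unadjusted p under 0.05, and the median log2 fold change was 0.11. Col1a1 and Col1a2 encode the chains of type I collagen, the main collagen of scar. Col1a1 was 5.98, 4.25, 7.10 and 5.04 in control mice and 5.09, 5.80, 9.85 and 7.33 in MOCA mice. The groups overlapped and MOCA mouse 3 was the highest of the 8, so that the log2 fold change of 0.27 (SE 0.19, 95% interval -0.14 to 0.67, adjusted p = 0.493) became 0.11 without that mouse. Col1a2 was 13.7 ± 2.17 in control and 15.1 ± 3.77 in MOCA livers (0.11, 95% interval -0.23 to 0.45), and its sign turned without MOCA mouse 3. Col3a1, the collagen of reticular fibres, was 32.02 ± 5.21 and 33.9 ± 8.33 (0.06, 95% interval -0.30 to 0.43), a sign that turned under 4 other settings. Col5a1 and Col5a2 encode type V chains, which start and thin fibrils. They had log2 fold changes of -0.12 (95% interval -0.30 to 0.06) and 0.19 (-0.20 to 0.59), the latter on 16 to 45 reads a mouse. Col3a1 and Col5a2 are neighbours on chromosome 1, 24.6 kb apart.

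The 8 other collagens held 3 unadjusted p under 0.05 (37.5%, against 17.5% of all genes), those of Col18a1, Col15a1 and Col4a1. None was called by limma, with Col18a1 called by DESeq2 as given above. Col15a1, a basement membrane collagen related to Col18a1, was 4.42, 5.02, 2.65 and 7.32 in control mice. In MOCA mice it was 13.0, 5.48, 5.70 and 12.6. MOCA mice 1 and 4 stood above all controls, while MOCA mice 2 and 3 lay within the control range, and the log2 fold change was 0.76 (SE 0.30, 95% interval 0.11 to 1.42, adjusted p = 0.224). This was the largest difference by size among the 35 genes. Col18a1 and Col15a1 thus differed in sign.

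Col4a1 and Col4a2, whose products assemble into the common collagen IV trimer, lie head to head on chromosome 8 (11198423 to 11312889 and 11312805 to 11449287) and overlap by 85 bases at their starts. Col4a1 was 58.9, 54.8, 52.3 and 59.7 in control and 61.1, 67.7, 69.4 and 58.3 in MOCA mice, with MOCA mouse 4 inside the control range (log2 fold change 0.18, SE 0.08, 95% interval 0.01 to 0.35, adjusted p = 0.267). Its partner Col4a2 was 33.3 ± 3.42 and 35.2 ± 1.65 (0.08, 95% interval -0.10 to 0.27). The ratio of Col4a1 to Col4a2 per kilobase was 1.58 to 1.74 in control and 1.54 to 2.03 in MOCA mice, so the ranges overlapped. The collagen VI chains, which form beaded microfilaments, had log2 fold changes of 0.01 (Col6a1), -0.12 (Col6a2) and 0.04 (Col6a3). The sign of Col6a1 turned under 4 other settings, upper quartile scaling among them, and that of Col6a3 turned under 2, without control mouse 2 and without MOCA mouse 3. Col14a1, a collagen that binds to fibril surfaces, was 87.7 ± 6.72 and 79.1 ± 4.71 (-0.15, 95% interval -0.31 to 0.02, adjusted p = 0.35).

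Of the proteoglycans, glycoproteins and crosslinking enzymes 8 of 10 were tested, with no call by limma. Among these 2 had an unadjusted p under 0.05 (25%, against 17.5% of all genes), Reln, which DESeq2 called, and Ecm1. Fn1, fibronectin, had 3923, 4077, 4029 and 4055 in control mice and 3956, 3204, 3347 and 3357 in MOCA mice. MOCA mouse 1 lay inside the narrow control range and the other 3 stood below it, a difference of -0.22 on the log2 scale (SE 0.10, 95% interval -0.44 to 0.0014, adjusted p = 0.289). The proteoglycans Dcn, Bgn and Lum, which bind collagen fibrils, had log2 fold changes of -0.09, -0.08 and 0.13, with 95% intervals of -0.27 to 0.10, -0.22 to 0.06 and -0.15 to 0.41. Sparc had equal means, 69.7 ± 2.22 and 69.7 ± 7.94, with a wider spread in MOCA mice. Fibrillin-1 (Fbn1), the backbone of microfibrils, was 10.4 ± 1.66 and 10.7 ± 1.40. The lysyl oxidases of the set, Lox and Loxl1, which crosslink collagen and elastin, were near the detection limit. Outside the set, Loxl2, Loxl3 and Loxl4 of the same family had enough reads to be tested, and none was called. Lox gave 0 to 9 reads a mouse, with MOCA mouse 1 at 0 reads, which allows a value of up to 0.191. Loxl1 gave 7 to 20 reads, 0.939 ± 0.206 in control and 0.858 ± 0.352 in MOCA livers.

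Among the proteases and their inhibitors, Mmp14, the membrane-type protease that activates pro-Mmp2, had the one unadjusted p under 0.05. It was 65.5, 49.5, 57.5 and 61.8 in control and 53.1, 51.1, 42.4 and 47.4 in MOCA mice. Control mouse 2 lay among the MOCA mice, and the log2 fold change was -0.26 (SE 0.10, 95% interval -0.48 to -0.05, adjusted p = 0.211). Mmp2, a gelatinase, was 1.91 ± 0.43 and 2.25 ± 0.97, with MOCA mouse 3 at 3.69 and the other MOCA mice between 1.68 and 1.91. The inhibitors Timp2 and Timp3 had log2 fold changes of -0.03 (95% interval -0.28 to 0.21) and -0.01 (-0.22 to 0.19), and scaling to equal column sums turned both signs. Timp1, the inhibitor that is typically induced in fibrosis, gave 0 to 3 reads a mouse, with control mouse 2 at 0 reads, which allows a value of up to 0.193. At these read numbers Timp1 and Lox were not tested.

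The contractile genes were low and were highest in 1 MOCA mouse. Acta2, smooth muscle alpha-actin (chromosome 19, 34240336 to 34255585), was 1.98, 1.87, 2.22 and 2.88 in control and 3.5, 3.74, 6.93 and 2.50 in MOCA mice, on 29 to 107 reads a mouse. MOCA mouse 4 lay inside the control range, and the log2 fold change of 0.62 (SE 0.22, 95% interval 0.15 to 1.09, adjusted p = 0.181) was 0.39 without MOCA mouse 3. Myl9, a regulatory myosin light chain, was 1.10, 1.42, 1.05 and 1.68 in control and 1.91, 1.55, 4.21 and 1.95 in MOCA mice. Its log2 fold change was 0.51 (SE 0.21, 95% interval 0.05 to 0.96, adjusted p = 0.239) and 0.28 without MOCA mouse 3. Tagln, transgelin, was 6.93 in MOCA mouse 3 and 2.84 to 4.20 in the other MOCA mice, against 2.27 to 3.70 in control mice (0.32, 95% interval -0.14 to 0.78), and 0.10 without MOCA mouse 3.

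Of 8 listed markers of vascular smooth muscle 4 were highest in the same mouse. Myh11, smooth muscle myosin heavy chain, was 10.1 in MOCA mouse 3 and 2.73 to 5.22 in the other 7 mice. Calponin (Cnn1) was 1.10 there and 0 to 0.428 elsewhere, enteric actin (Actg2) 1.36 and 0 to 0.318, and leiomodin (Lmod1) 1.30 and 0.060 to 0.774, the last 3 on 0 to 21 reads, and these 4 were chosen after their values were seen. The other 4 were highest elsewhere, Tpm2 in MOCA mouse 1 (1.34), Smtn in MOCA mouse 4 (9.59), Mylk in control mouse 1 (146) and Pln in control mouse 3 (5.49). Of the 8 markers 4 were tested and none was called, with the smallest p for Myh11 (0.18, adjusted p = 0.795) and phospholamban, Pln (0.10, adjusted p = 0.857), whose signs turned without single mice. Their summed level, most of it from Mylk, was 118 to 163 in control and 124 to 153 in MOCA livers. The part of smooth muscle content in the contractile values was not tested.

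**Figure D3:**
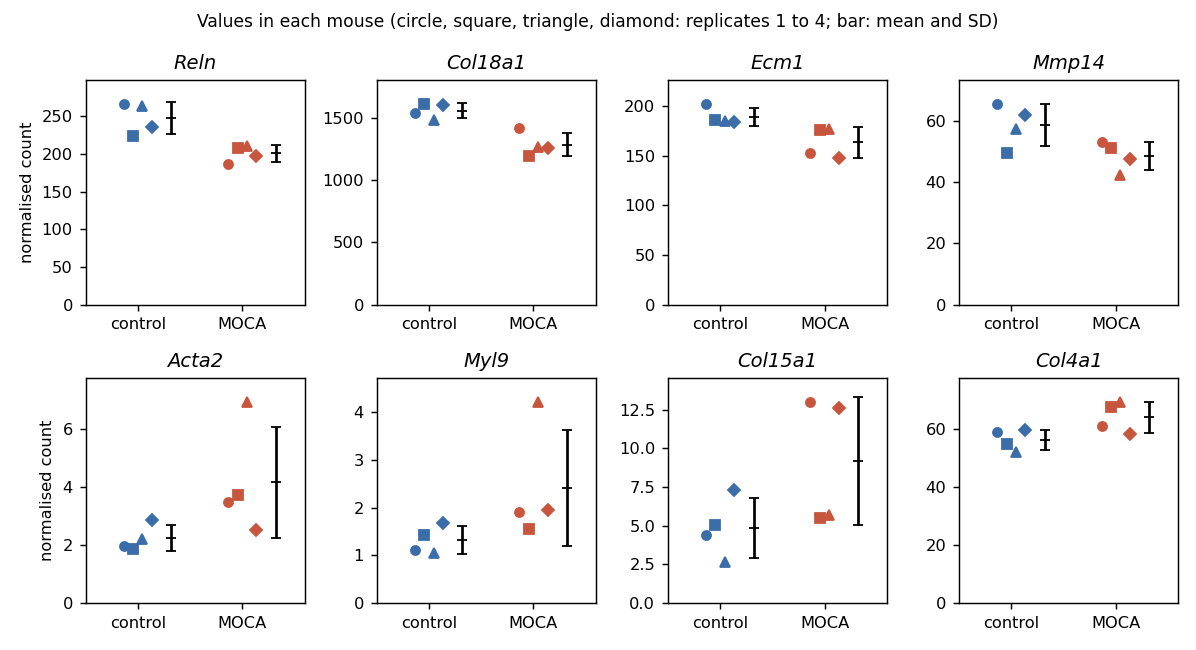
Normalised counts in each mouse for the 8 genes with an unadjusted p under 0.05, with control mice in blue, MOCA mice in red, and the mean with its SD beside them. Reln, Col18a1 and Ecm1 do not overlap between groups, and MOCA mouse 3 (triangle) stands highest for Acta2 (6.93) and Myl9 (4.21).

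Among the stellate cell markers of the set, Lrat, Rgs5, Des and Hgf differed little in mean. Reln (-0.30), Ecm1 (-0.21) and Pdgfrb (-0.14) had lower means in MOCA livers, Pdgfrb with overlap between the groups. Lrat was 25.2, 27.6, 23.3 and 22.2 in control and 19.5, 31.4, 25.3 and 27.5 in MOCA mice. The MOCA mice spread on both sides of the control range (log2 fold change 0.06, SE 0.13, 95% interval -0.23 to 0.34, adjusted p = 0.858). Rgs5, a regulator of G protein signalling found in pericytes, was 40.6 ± 1.43 and 42.1 ± 2.68 (0.05, 95% interval -0.10 to 0.20). Desmin (Des), an intermediate filament of stellate and muscle cells, was 3.21 ± 0.54 and 3.05 ± 0.66 (-0.06, 95% interval -0.38 to 0.26). Reln and Ecm1, described above, were the stellate markers of the set without overlap. Among 15 tested markers of quiescent stellate cells outside the set none was called. The list had 12 negative and 3 positive log2 fold changes (11 and 4 with equal column sums), against 5868 and 6140 over all genes tested. Its median was -0.10, and 4 markers had an unadjusted p under 0.05 (26.7%, against 17.5% of all genes). Of these 3 were lower and 1 higher in MOCA livers, against 8.05% and 9.42% of all genes. The higher one was Steap4 (88.8 ± 8.06 and 102 ± 7.42, 0.19, adjusted p = 0.257). The smallest p of the list were those of Vipr1, a receptor of vasoactive intestinal peptide (62.8 ± 4.70 and 51.1 ± 4.78, -0.29, adjusted p = 0.128), and the transcription factor Hand2 (7.67 ± 1.34 and 5.77 ± 0.68, -0.35, adjusted p = 0.197). Gfap, listed but too low to be tested, gave 3 to 17 reads a mouse. It was 0.723 ± 0.278 in control and 0.268 ± 0.072 in MOCA livers, without overlap. The summed level of the list overlapped between groups, 354 to 400 in control and 345 to 391 in MOCA livers.

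The ligands and receptors of the set held no call and no unadjusted p under 0.05. Tgfb1, the main fibrogenic cytokine, was 14, 11.8, 11.7 and 12.7 in control and 11.2, 13.7, 12.0 and 12.6 in MOCA mice. The groups overlapped almost fully (log2 fold change -0.02, SE 0.09, 95% interval -0.22 to 0.19), and scaling to equal column sums gave the opposite sign. Hgf, hepatocyte growth factor, which stellate cells secrete, was 27.6 ± 3.19 and 27.3 ± 2.51 (-0.01, 95% interval -0.23 to 0.20), and that scaling turned its sign too. The PDGF receptors Pdgfrb and Pdgfra, through which PDGF drives stellate cell division, had log2 fold changes of -0.14 (95% interval -0.40 to 0.13) and -0.22 (-0.53 to 0.09).

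Further genes of TGF-beta signalling held no call by limma among 16 tested and 1 by DESeq2 (Smad3), against 0.666% and 3.61% of all genes. They held 6 unadjusted p under 0.05 (37.5%, against 17.5% of all genes), 5 of them lower, with a median log2 fold change of -0.13. Bambi, a pseudoreceptor that dampens TGF-beta signals, was 3.31, 4.25, 4.32 and 3.0 in control and 1.91, 2.51, 2.53 and 2.26 in MOCA mice. The groups did not overlap (log2 fold change -0.51, SE 0.13, adjusted p = 0.0955). Smad3, a transducer of TGF-beta, was 27.9 ± 3.63 and 21.3 ± 2.06, also without overlap (-0.37, SE 0.10, limma adjusted p = 0.122, DESeq2 adjusted p = 0.0495). Of 7 tested genes of PDGF and HGF signalling limma called none and DESeq2 1 (Met), against 0.666% and 3.61% of all genes. An unadjusted p under 0.05 was seen in 3 (42.9%, against 17.5% of all genes), all lower. Met, the receptor of Hgf, was 135 ± 5.16 and 108 ± 12.4 without overlap (-0.32, SE 0.08, limma adjusted p = 0.105, DESeq2 adjusted p = 0.034), and Hgfac, the protease that activates Hgf, was 183 ± 16.4 and 152 ± 21.5 with overlap (-0.28, SE 0.10, adjusted p = 0.209).

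The rest of the matrix pathway also gave no call by limma, while DESeq2 called Hspg2 (adjusted p = 0.0123) and Mmp19 (adjusted p = 0.00421). The shares called over all genes were 0.666% by limma and 3.61% by DESeq2. All 14 tested laminin and basement membrane genes had a negative log2 fold change, against 5868 of all 12008 genes tested. With equal column sums 13 of the 14 were negative. Their median was -0.13, and 3 had an unadjusted p under 0.05 (21.4%, against 17.5% of all genes). Hspg2, perlecan, the heparan sulfate proteoglycan of basement membranes, was 147, 124, 139 and 136 in control and 102, 110.1, 119 and 105 in MOCA mice. Its groups did not overlap (log2 fold change -0.32, SE 0.08, adjusted p = 0.0805), and the laminin chain Lamb3 was 4.00 ± 0.96 and 2.61 ± 0.26 (-0.45, SE 0.14, adjusted p = 0.155). The 16 tested genes of collagen synthesis had a median of -0.03 and 1 unadjusted p under 0.05, that of Serpinh1, the collagen chaperone HSP47, which was 10.4 ± 0.43 and 12.7 ± 2.08 without overlap (0.25, SE 0.11, adjusted p = 0.256). The next smallest p in that list was that of P3h3, a prolyl hydroxylase (-0.25, adjusted p = 0.312).

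Among 8 tested proteases outside the set Mmp19, a matrix metalloproteinase of broad substrate range, had the smallest adjusted p of all list genes. It was 61.9, 86.7, 71.3 and 80.5 in control and 99.6, 110.0, 94.4 and 112 in MOCA mice. Every MOCA mouse stood above every control mouse, and the difference on the log2 scale was 0.47 (SE 0.10, adjusted p = 0.0644). Adamts5, an aggrecanase, was 4.45 ± 0.37 and 3.24 ± 1.16 (-0.40, SE 0.17, adjusted p = 0.253). The 14 elastic fibre genes had a median of -0.12, with the smallest p for Ltbp1 (-0.31, adjusted p = 0.224) and Ltbp4 (-0.20, adjusted p = 0.335), both of which bind latent TGF-beta. The 16 integrins and collagen receptors had a median of -0.07, with the smallest p for Itgb1 (-0.18, adjusted p = 0.214) and Sdc2 (0.16, adjusted p = 0.245).

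Single mice stood at the extremes of many genes of the set. MOCA mouse 3 held the highest value of the 8 mice in 16 of 35 genes (45.7%), against 13.4% of all genes tested. These included Col1a1, Col1a2, Col3a1, the 3 collagen VI chains, Acta2, Tagln and Myl9. MOCA mouse 1 held the lowest value in 11 of 35 genes (31.4%), against 9.80% of all genes, among them Reln, Lrat, Pdgfrb, Des, Dcn and Bgn. The median log2 deviation of the 35 genes from the control mean was -0.135, -0.062, 0.143 and 0.0060 in MOCA mice 1 to 4. In control mice 1 to 4 it was 0.041, -0.073, 0.011 and 0.028, so 2 MOCA mice lay outside the control range, on opposite sides.

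**Figure D4:**
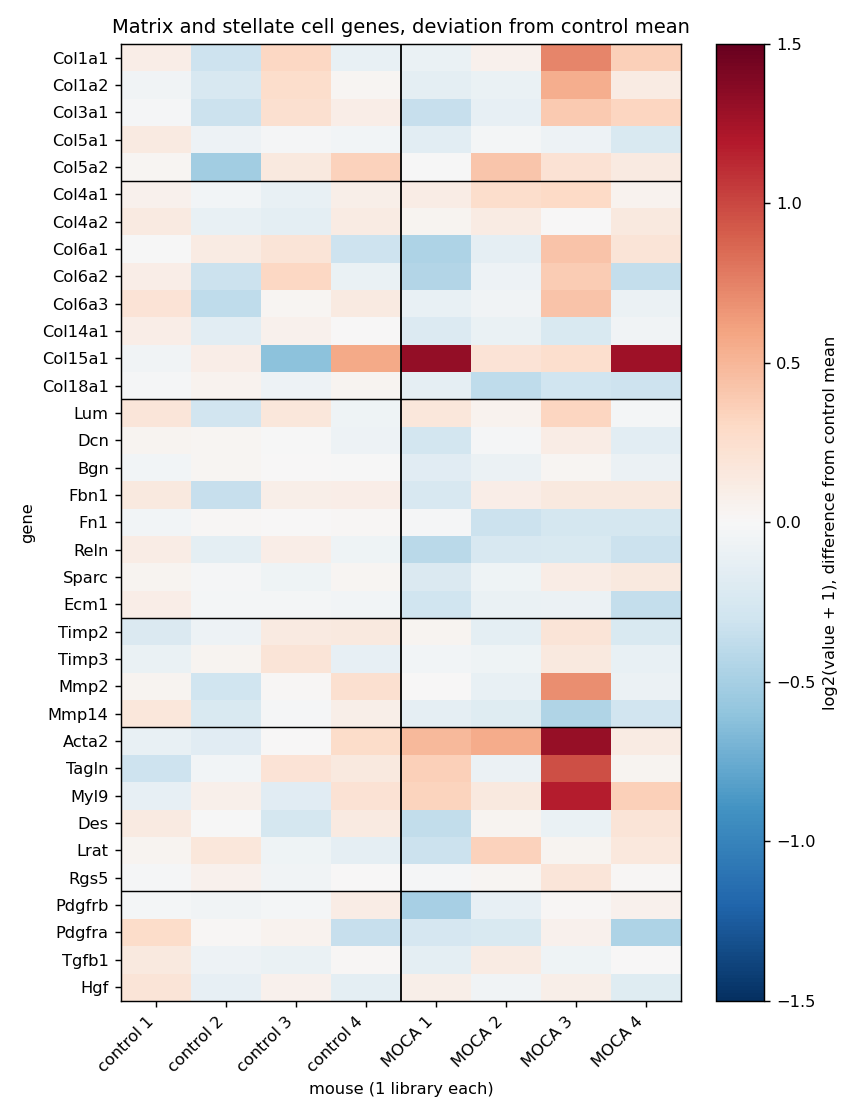
Difference of log2(value + 1) from the control mean for 35 genes (rows, in blocks by role) in 8 mice (columns), with red for higher and blue for lower values. MOCA mouse 3 is red across types I, III and VI collagen and the contractile genes, and MOCA mouse 1 is mostly blue outside Col15a1, Col4a1 and the contractile genes.

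By Pearson r, chains of 1 protein varied together over the 8 mice in some pairs and not in others. The 10 gene pairs were picked after the values were seen, so their p-values describe the pairs and cannot test for a relation. None had a Spearman permutation p under 0.05 after adjustment, the lowest being 0.0727. Col1a1 and Col1a2 had the highest Pearson r, 0.931 (exact permutation p = 0.00136, two-sided, 0.0136 adjusted over the 10 pairs). Their Spearman rho was 0.833 (exact permutation p = 0.0154, adjusted 0.0727). Without MOCA mouse 3 and control mouse 2, the farthest from the median, r was 0.754. Acta2 and Myl9 had r of 0.894 (exact permutation p = 0.01, adjusted 0.0333) and rho of 0.69 (exact permutation p = 0.0694, adjusted 0.174), and r was 0.638 without the same 2 mice. Tagln and Myl9 had r of 0.859 (exact permutation p = 0.0219, adjusted 0.0383) and rho of 0.524 (exact permutation p = 0.197, adjusted 0.281), and r was 0.0888 without MOCA mouse 3 and control mouse 1, so that this relation rests on those 2 mice. Col4a1 and Col4a2 had r of 0.509 (exact permutation p = 0.198, adjusted 0.247) and rho of 0.238 (exact permutation p = 0.582, adjusted 0.582). Without MOCA mice 2 and 3 their r was 0.844. The collagen VI pairs had r of 0.569 (Col6a1 and Col6a2), 0.285 (Col6a1 and Col6a3) and 0.771 (Col6a2 and Col6a3). Without the 2 mice farthest from the median of the first gene, these were -0.0172, -0.451 and 0.745. Lum and Dcn, neighbours on chromosome 10 that lie 47.3 kb apart, had r of 0.0942 (exact permutation p = 0.816, adjusted 0.816) and rho of 0.476 (exact permutation p = 0.243, adjusted 0.304).

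Genomic span was set beside the differences as a further property. Of the 35 genes 9 span over 100 kb, and 4 of these had a negative log2 fold change (44.4%), with a median of 0.04. Over all tested genes with a RefSeq span, 1482 exceed 100 kb, of which 63.4% were negative, with a median of -0.05. Reln is the longest gene of the set, with 460.3 kb.

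Of the markers of other liver cells limma and edgeR called none, against 0.666% and 0.675% of all genes. DESeq2 called 3, all of them among the 10 hepatocyte markers, against 3.61% of all genes. Over all genes tested 6140 log2 fold changes were positive and 5868 negative, and 17.5% had an unadjusted p under 0.05. Of 10 sinusoidal endothelial markers 7 had negative log2 fold changes (6 with equal column sums) and 3 an unadjusted p under 0.05, with the smallest for Stab2, a scavenger receptor (154 ± 14.6 and 129 ± 1.98, -0.25, adjusted p = 0.138) and Fcgr2b (-0.21, adjusted p = 0.209). The summed level of the endothelial list was 563 to 645 in control and 541 to 562 in MOCA livers. The highest MOCA sum (561.8) lay just below the lowest control sum (562.7). This gap is narrow beside the differences in column sum between mice (950040 to 1072797), so it depends on the scaling. The 10 hepatocyte markers were all negative, 9 of 10 with equal column sums, with a median of -0.21. Serpina1c (-0.46, adjusted p = 0.117) and transferrin, Trf (-0.38, adjusted p = 0.218), had the smallest p by limma. The 3 called by DESeq2 were Trf (adjusted p = 0.0019), Serpina1c (adjusted p = 0.00639) and Apob, the apolipoprotein of very low density lipoprotein (15455 ± 318 and 13485 ± 629, -0.20, limma adjusted p = 0.455, DESeq2 adjusted p = 0.0395). Beside them the hepatocyte product Fn1 had -0.22, Col18a1 -0.28 and the stellate and basement membrane genes Reln and Hspg2 -0.30 and -0.32, and the part of cell content in these values was not tested. Of 10 Kupffer cell markers 9 were positive (all 10 with equal column sums), with a median of 0.17, a summed level of 353 to 437 in control and 365 to 496 in MOCA livers, and the smallest p for C1qb (0.25, adjusted p = 0.313) and Adgre1 (0.22, adjusted p = 0.35).

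Activated myofibroblast markers did not separate the groups. Of 8 listed 6 were tested, with a median of -0.03, no unadjusted p under 0.05 and a summed level of 61.4 to 67.3 in control and 60.0 to 71.2 in MOCA livers. Periostin (Postn) was 13.7 to 22.4 in control and 13.4 to 19.3 in MOCA mice, and the fibroblast protease Fap gave 0 to 3 reads. The smallest p in the list were those of Aebp1 (-0.24, adjusted p = 0.478) and Crip1 (-0.12, adjusted p = 0.675). Portal fibroblast markers were tested in 5 of 9 cases, with a median of 0.23 and a summed level of 63.3 to 85.1 and 75.7 to 100.5, led by Gas6 (0.28, adjusted p = 0.319) and dermatopontin, Dpt (0.40, adjusted p = 0.354). The bile duct and mesothelial lists had 3 testable genes each. The smallest p were those of Krt19 (-0.20, adjusted p = 0.593) and Epcam (0.02, adjusted p = 0.972), and of Upk3b (-0.43, adjusted p = 0.455) and Gpm6a (-0.19, adjusted p = 0.535).

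**Figure D5:**
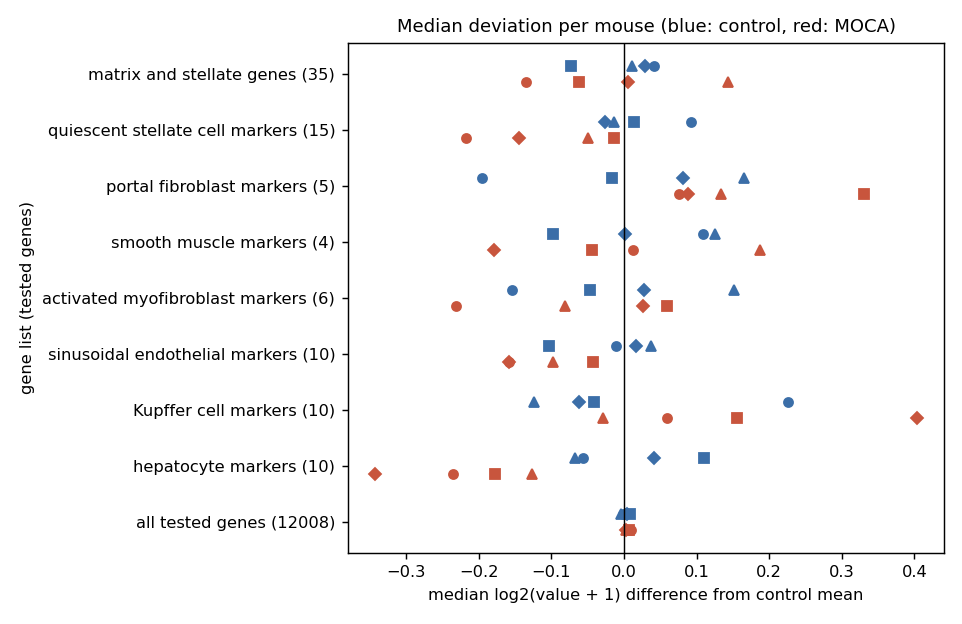
Median over each list of the difference of log2(value + 1) from the control mean, in each mouse (blue control, red MOCA; circle, square, triangle and diamond are replicates 1 to 4), with the number of tested genes in brackets. The 35 matrix and stellate genes spread from -0.135 to 0.143 in MOCA mice around the control range, while the hepatocyte list lies below it in all 4 MOCA mice.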

How the data were processed

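Liver RNA was made into rRNA-depleted directional libraries from 200 ng of total RNA, per the labels' protocols. The submitters' processing notes name edgeR, RSEM, Bowtie2, Trimmomatic 0.38 and the mm10 build, with no roles given. The authors deposited 1 table of normalised counts (signal scaled per library). All values (100%) were whole multiples of 1 read per column within 0.001, so whole reads were recovered, and TMM-scaled CPM recomputed from them equalled the deposited values. Number of sample columns not used: 0.

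Tested genes reached a value of 1 in 4 or more of the 8 libraries. The test was made with limma 3.58.1 (R 4.3.3) on log2(value + 1), with eBayes and trend, no covariate, and Benjamini-Hochberg adjusted p under 0.05 over 12008 genes. Count tests on recovered reads used edgeR 4.0.16, which called 81 genes, and DESeq2 1.42.0. The limma fit was also run on simulated reads, with changes larger than most differences of the set and the same spread setting for every gene. That run does not measure the power for differences of the size seen here. Intervals are 95% from the limma fit, and limits for 0 reads use 3 reads and cover counting error only. Libraries of a group differed by more than counting error, with a chi-square of 12.5 to 26.9 per degree of freedom. Each library is labelled as a separate mouse, and p-values measure the spread between these mice. Positions and promoters are RefSeq (GRCm38), with a span matched by symbol for 95.3% of tested genes. Transcript lengths are GENCODE.

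The members and gene lists were chosen with earlier results of these data known. The text names all members, and for each other list every called gene and the 2 tested genes with the smallest p. Genes called by DESeq2 alone are named too. Outside these rules the text also names Steap4, Gfap, Postn, Fap, Loxl2, Loxl3, Loxl4 and the rest of the smooth muscle list. Other list genes outside the rules are not named, whatever their direction. How RSEM split reads between similar genes and whether strand was used in counting are not given in the sources used here, so overlapping genes such as Col4a1 and Col4a2 are uncertain at their shared bases.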

Additional observations from a re-analysis of the deposited data

Results flagged for a closer look

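In 6 of 70 groups of 4 mice (35 genes, 2 groups each), 1 mouse stood apart from the other 3 by Dixon's test at the 95% level. The nominal rate is about 1 in 20, but the genes share the same 8 mice, so the groups are not independent. The share over all genes tested is not given here, so the count does not set the members apart from other genes. In 3 of the 6 groups the mouse was MOCA mouse 3. Its Col6a3 value was 14.5 against 9.61 to 10.1 in the other MOCA mice, its Myl9 value 4.21 against 1.55 to 1.95, and its Mmp2 value 3.69 against 1.68 to 1.91. For Fbn1 control mouse 2 had 7.92 against 11.05 to 11.5 in the other controls, and MOCA mouse 1 had 8.59 against 11.1 to 11.5 in the other MOCA mice. For Ecm1 control mouse 1 had 203 against 184 to 186 in the other controls.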

How the results depend on the processing

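The count of 0 called members was the same in 21 of 22 alternatives, the exception being DESeq2 with 2 (Col18a1 and Reln), and the cause was not tested. In the other gene lists, with 157 tested genes, 1 gene was called with equal column sums and 1 with robust eBayes, Mmp19 in both. DESeq2 called 7 (Hspg2, Mmp19, Smad3, Met, Apob, Serpina1c and Trf), against 3.61% of all genes. The reported limma test called 0 in these lists, with 28 at an unadjusted p under 0.05 (17.8%, against 17.5% of all genes), and edgeR called 0. Over all genes 80 were called, 169 with equal column sums, 30 with the replicate block and 425 with DESeq2. Leaving out each mouse in turn gave 29 to 77. Of the 80 calls 48 were higher and 32 lower, against 131 and 38 for equal column sums and 45 and 49 for upper quartile scaling. The median of the members ranged from -0.047 to 0.062 without single mice. Of 35 members 22 kept their sign in all alternatives and 13 did not, the latter with log2 fold changes of at most 0.129 in size. Replicate numbers do not pair the mice: same-numbered mice had correlations of -0.0735, -0.00138, 0.036 and -0.0441 between their deviations from the group means, so the block, under which 0 members were called, tests only a shared number. Genes under about 20 reads a mouse, such as Lox, Loxl1 and Timp1, are limited by depth.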
